A study of Arabidopsis thaliana with 24 samples.

Results

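Dehydrins are a class of late embryogenesis abundant (LEA) proteins, and 10 dehydrin loci of Arabidopsis thaliana were followed through seed maturation in mutants whose seeds do or do not survive drying. The members were chosen by a list of locus identifiers of the family: RAB18 (AT5G66400), XERO1 (AT3G50980), XERO2 (AT3G50970), COR47 (AT1G20440), ERD10 (AT1G20450), ERD14 (AT1G76180), AT1G54410, AT2G21490, AT4G38410 and AT4G39130. All 10 were among the 33597 loci of the table of counts, and all 10 passed the filter on low counts over all libraries. In the wild types Ws and Ler alone COR47, ERD10, AT1G54410 and AT4G38410 did not pass it.

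RNA of dissected seeds was sequenced at 15, 17 and 21 days after flowering in 8 genotypes. The mutants whose seeds do not survive drying were lec1-1 (ecotype Ws), abi3-5 (ecotype Ler) and fus3-3 (ecotype Col-0), called intolerant here. The tolerant mutants were lec2-1 in Ws and abi3-1, a weak allele, in Ler, and the wild types were Ws, Ler and Col-0. LEC1 encodes a subunit of a CCAAT-binding factor, LEC2, FUS3 and ABI3 encode B3-domain transcription factors, and all of them drive seed maturation. Tolerance follows the series design, and the individual labels of abi3-1 differ from it by listing that mutant as intolerant. Each mutant was represented by 1 allele, and each library by 1 pool of RNA from whole seeds, so embryo, endosperm and seed coat were measured together, and fewer cells of a type and less RNA per cell cannot be told apart. No genotype and day had a second library: the days were the repeats of a genotype. Every p-value below measures the spread of pooled libraries left around the fitted terms, genotype and day or slope, and not the spread between replicate pools. The lec2-1 columns of 15 and 17 days were identical at every locus and were counted as 1 library, which left 23 distinct libraries.

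Dehydrins are hydrophilic, largely unfolded proteins that accumulate in drying seeds and in stressed leaves and roots, where they bind water, membranes, proteins or metal ions. All carry a lysine-rich K segment, which can fold into a helix on membranes. Many carry a run of serines, the S segment, and some carry Y segments near their start. RAB18 is the classical gene induced by abscisic acid (ABA), COR47, ERD10 and XERO2 (also called LTI30) are cold-induced, ERD14 is an early dehydration-responsive gene, and AT1G54410 (HIRD11) encodes a small histidine-rich dehydrin that binds metals.

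The members were grouped by the Y segment, searched in the translated RefSeq coding sequences as aspartate, any pair of residues, glycine and asparagine. The segment was found in RAB18, XERO1, AT2G21490 and AT4G39130, with 2, 1, 3 and 2 copies. It was not found in COR47, ERD10, ERD14, XERO2, AT1G54410 or AT4G38410. The first Y segment of each of the 4 is shown as coding sequence, because the results below are ordered by it, with the segment in capitals:
RAB18: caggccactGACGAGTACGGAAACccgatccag
XERO1: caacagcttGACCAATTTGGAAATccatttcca
AT2G21490: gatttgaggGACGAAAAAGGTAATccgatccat
AT4G39130: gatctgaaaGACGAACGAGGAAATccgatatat

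K segments numbered 6 in XERO2, 3 each in COR47 and ERD10, 2 each in RAB18, XERO1, AT2G21490, ERD14 and AT4G38410, and 1 each in AT4G39130 and AT1G54410. The coding sequence of the last K segment is shown for 4 members of different build, with its core in capitals:
RAB18: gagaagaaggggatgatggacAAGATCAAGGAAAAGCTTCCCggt
COR47: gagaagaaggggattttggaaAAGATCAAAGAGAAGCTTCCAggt
XERO2: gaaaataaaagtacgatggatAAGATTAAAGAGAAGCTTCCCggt
AT1G54410: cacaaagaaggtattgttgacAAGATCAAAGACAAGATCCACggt
A run of 4 or more serines was found in 8 of the 10 proteins and not in XERO2 or AT4G39130. Glutamate made up 21.1% of ERD14, 22.6% of COR47 and 19.6% of ERD10, and 5.38 to 7.03% of the 4 proteins with a Y segment. Histidine made up 13.3% of AT1G54410 and 13.5% of XERO2. COR47 and ERD10 are neighbours on chromosome 1 with 67.7% identical residues and an identical coding stretch of 32 bases, and counts of this pair could be split between them if reads fitted both.

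Upstream sequence is shown for the 4 genes with a Y segment, for XERO2, the neighbour of XERO1, and for AT1G54410, the member higher in all intolerant mutants. Each line holds the 250 bases before the gene start in the RefSeq annotation of TAIR10.1, read 5′ to 3′ on the gene's strand. Capitals mark the core of the ABA-responsive element (ABRE, ACGTG), the RY element bound by B3 factors such as ABI3 and FUS3 (CATGCA), and the core of the dehydration-responsive element (DRE, CCGAC), searched on both strands:
RAB18, chr5:26519448-26519697, minus strand: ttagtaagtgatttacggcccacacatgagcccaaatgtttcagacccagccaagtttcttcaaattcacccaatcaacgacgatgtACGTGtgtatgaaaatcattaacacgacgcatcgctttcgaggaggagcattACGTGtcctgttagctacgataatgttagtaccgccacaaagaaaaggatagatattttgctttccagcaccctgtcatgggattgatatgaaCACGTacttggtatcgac
XERO1, chr3:18941675-18941924, plus strand: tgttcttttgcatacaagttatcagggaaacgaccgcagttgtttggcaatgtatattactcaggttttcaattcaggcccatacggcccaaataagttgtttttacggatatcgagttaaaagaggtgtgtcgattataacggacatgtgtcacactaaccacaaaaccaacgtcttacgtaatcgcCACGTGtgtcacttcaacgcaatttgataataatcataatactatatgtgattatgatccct
AT2G21490, chr2:9207126-9207375, minus strand: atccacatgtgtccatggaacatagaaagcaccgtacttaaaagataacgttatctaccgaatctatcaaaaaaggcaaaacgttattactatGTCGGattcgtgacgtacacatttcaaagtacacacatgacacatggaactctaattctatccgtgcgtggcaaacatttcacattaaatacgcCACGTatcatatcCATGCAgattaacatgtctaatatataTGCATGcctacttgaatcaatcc
AT4G39130, chr4:18228855-18229104, minus strand: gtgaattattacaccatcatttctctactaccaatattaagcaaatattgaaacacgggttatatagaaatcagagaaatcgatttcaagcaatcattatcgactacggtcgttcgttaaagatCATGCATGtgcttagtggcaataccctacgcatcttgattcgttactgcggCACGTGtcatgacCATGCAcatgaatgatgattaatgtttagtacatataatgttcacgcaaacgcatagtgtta
XERO2, chr3:18940393-18940642, plus strand: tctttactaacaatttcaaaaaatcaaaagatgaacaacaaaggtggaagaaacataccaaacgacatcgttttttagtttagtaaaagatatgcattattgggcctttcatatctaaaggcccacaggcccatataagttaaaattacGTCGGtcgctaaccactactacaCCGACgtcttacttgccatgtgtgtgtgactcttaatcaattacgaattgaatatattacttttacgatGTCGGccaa
AT1G54410, chr1:20310851-20311100, minus strand: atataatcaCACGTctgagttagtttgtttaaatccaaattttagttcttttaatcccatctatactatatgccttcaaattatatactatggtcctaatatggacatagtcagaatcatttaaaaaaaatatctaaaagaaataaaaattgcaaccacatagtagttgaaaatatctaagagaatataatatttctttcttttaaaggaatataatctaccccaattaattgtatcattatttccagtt
The ABRE core was found upstream of 4 of the 4 genes with a Y segment and 3 of the 6 without one, against 22.9% of 27443 promoters of the same length. RAB18 held 3 matches, with first bases 163, 111 and 18 bases before the start. The matches of XERO1 and of AT4G39130 were each a palindrome read on both strands, and the RY matches of AT4G39130 at 126 and 124 bases overlap. RY matches were found at AT2G21490, AT4G39130 and COR47, against 8.43% of all promoters. DRE core matches were found at AT2G21490 and XERO2, against 12.0% of all promoters, and the 3 matches of XERO2 compare with 0.197% of promoters that held 3 or more. A match describes letters in this window and is no evidence that a factor binds.

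**Figure D1:**
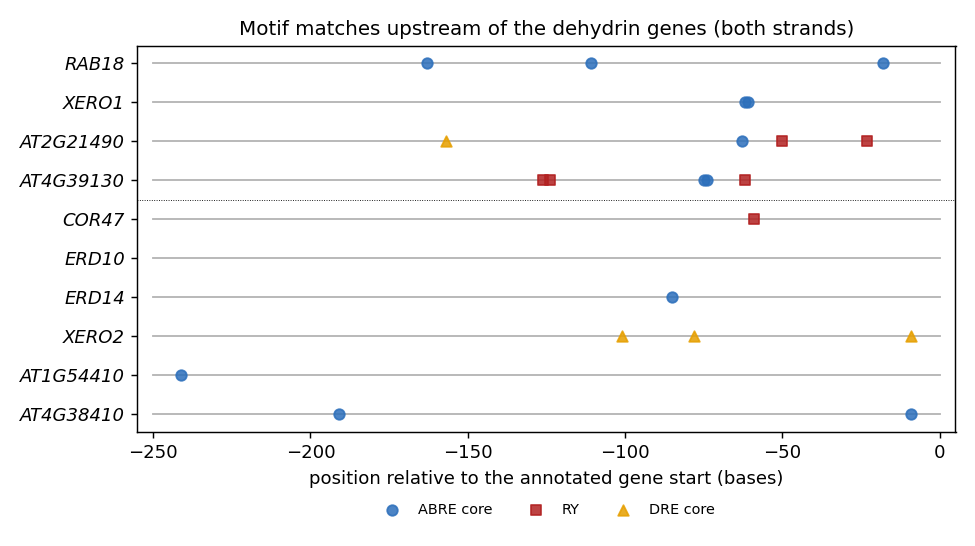
Matches to the ABRE core (circles), RY (squares) and DRE core (triangles) in the 250 bases before each dehydrin gene, by position relative to the annotated start in bases. All 4 genes with a Y segment (above the dotted line) hold an ABRE core, XERO2 holds 3 DRE cores and ERD10 holds none of these motifs.

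Library totals ran from 1670355 to 6531673 counts. Levels are CPM, counts scaled to a common library size after TMM normalisation, with TMM factors of 0.486 to 1.92, and are compared between libraries, not between genes. The dehydrins together took 0.171% of the counts in fus3-3 at 15 days and 8.69% in Ws at 21 days. LEC1 and LEC2 had 0 to 5 counts per genotype, too few to check the labels by. FUS3 had a log2 fold change of -1.75 in fus3-3 against Col-0 (SE 1.02, edgeR adjusted p = 0.237). Its counts were 223 and 74 in libraries of unequal size, and the fitted value also depends on the term for day. ABI3 had log2 fold changes of -1.32 in abi3-5 (SE 0.49, edgeR adjusted p = 0.106) and -0.08 in abi3-1 (SE 0.48, 1) against Ler, so no mutated gene was called lower in its own mutant. The Col-0 libraries labelled 17 and 21 days stood apart: across loci the log2 level of the one labelled 17 days correlated at 0.933 with Ws at 21 days and 0.860 with Ws at 17 days, and that of the one labelled 21 days at 0.808 with Ws at 21 days and 0.910 with Ws at 17 days. The dehydrin calls that use Col-0 are given with and without these libraries, while marker and pathway lists in fus3-3 are given with Col-0 as labelled and were not recomputed without them. Summed over 8 green tissue markers, levels were 3541 to 10060 CPM in lec1-1, 2094 to 3661 CPM in abi3-5, 1156 to 6452 CPM in fus3-3, 1857 to 2613 CPM in lec2-1 and 44.1 to 926 CPM in abi3-1, against 101 to 232 CPM in Ws, 58.0 to 1125 CPM in Ler and 165 to 1434 CPM in Col-0. Of these 8 markers 7 were called higher in lec1-1, 3 in abi3-5, 3 in fus3-3, 6 in lec2-1 and 0 in abi3-1, and their part in the dehydrin results was not tested. Across all loci 14.5%, 4.24%, 10.3%, 1.85% and 0% were called higher, in the same order of mutants. Of 5 silique wall markers only SHP2 and ALC passed the filter. ALC was called higher in lec1-1 (log2 fold change 4.38, edgeR adjusted p = 0.018), where SHP2 was at -2.47 (edgeR adjusted p = 0.0994). Of 7 seed coat markers only TT10, MUM4 and MUM2 passed the filter. TT10 was called lower in fus3-3 (log2 fold change -5.24, edgeR adjusted p = 0.0175), where MUM4 and MUM2 were at 0.67 and 0.11 and not called. None of 6 endosperm markers passed the filter, with summed levels of at most 6.13 CPM. Embryo reserve genes were called lower for 3 of 6 in lec1-1 and 4 of 6 in abi3-5 and in fus3-3. The share of all loci called lower was 9.15% in lec1-1, 3.75% in abi3-5 and 8.67% in fus3-3.

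The first comparison asked which dehydrins differ in lec1-1 seeds. The genes with a Y segment were at lower levels in lec1-1 at all 3 days, while AT1G54410 was many times higher. Of the 10 members 1 was called higher, AT1G54410, and 1 lower, AT2G21490, against a background of 23.7% of 16085 loci called (14.5% higher and 9.15% lower). The median log2 fold change was -2.19 over the 4 members with a Y segment and 1.10 over the 6 without, against 0.03 over all loci. Of those without, COR47, ERD10, AT1G54410 and AT4G38410 entered the fit through libraries outside Ws and Ler. The median of that group is therefore partly set by the filter. AT2G21490, a seed-expressed dehydrin, had 392, 501 and 939 CPM in lec1-1 at 15, 17 and 21 days, against 3162, 4509 and 5737 CPM in Ws. The groups did not overlap, and the level fell by 2.90 on the log2 scale (SE 0.73, edgeR adjusted p = 0.00874). RAB18 had 3557, 7333 and 14838 CPM in lec1-1, against 22569, 46467 and 67561 CPM in Ws. The groups did not overlap here either, but the log2 fold change of -2.54 did not pass (SE 0.97, edgeR adjusted p = 0.0623). XERO1, a relative of RAB18 with 68.8% identical residues, had 707, 879.7 and 1474 CPM in lec1-1, against 1772, 3707 and 8247 CPM in Ws (log2 fold change -1.85, SE 0.82, edgeR adjusted p = 0.107). AT4G39130 had 2.22, 3.76 and 9.58 CPM in lec1-1, against 6.80, 9.09 and 11.9 CPM in Ws, lower on each day but with overlapping ranges (log2 fold change -1.02, edgeR adjusted p = 0.316). All 4 genes with a Y segment were higher at 21 than at 15 days within lec1-1.

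Among members without a Y segment, AT1G54410 had 42.4, 52.3 and 35.1 CPM in lec1-1, against 2.47, 3.89 and 1.93 CPM in Ws. Every lec1-1 library lay above every Ws library, and the level rose by 4.04 on the log2 scale (SE 0.77, edgeR adjusted p = 0.0014). AT4G38410 had 4.87, 2.21 and 0.685 CPM in lec1-1, against 0, 0.649 and 0.276 CPM in Ws. These are 46 counts against 2, a ratio of 9.96 with a 95% interval of 2.61 to 84.7 for counting error alone, and the change did not pass (log2 fold change 2.82, SE 1.08, edgeR adjusted p = 0.0642). XERO2 had 1.18, 7.31 and 43.6 CPM in lec1-1, against 9.27, 39.6 and 99.5 CPM in Ws, lower on each day with overlapping ranges (log2 fold change -1.93, SE 1.02, edgeR adjusted p = 0.177). COR47, ERD10 and ERD14 had log2 fold changes of 1.37, 0.34 and 0.84, with edgeR adjusted p of 0.375, 0.847 and 0.463. AT2G21490 lost its call without the lec1-1 library of 17 days (edgeR adjusted p = 0.0529), while AT1G54410 was called with each of the 23 libraries left out in turn (log2 fold change 3.65 to 4.52). On library totals in place of TMM the median of all loci moved to 1.21, and the split of calls was 4 higher and 0 lower.

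**Figure D2:**
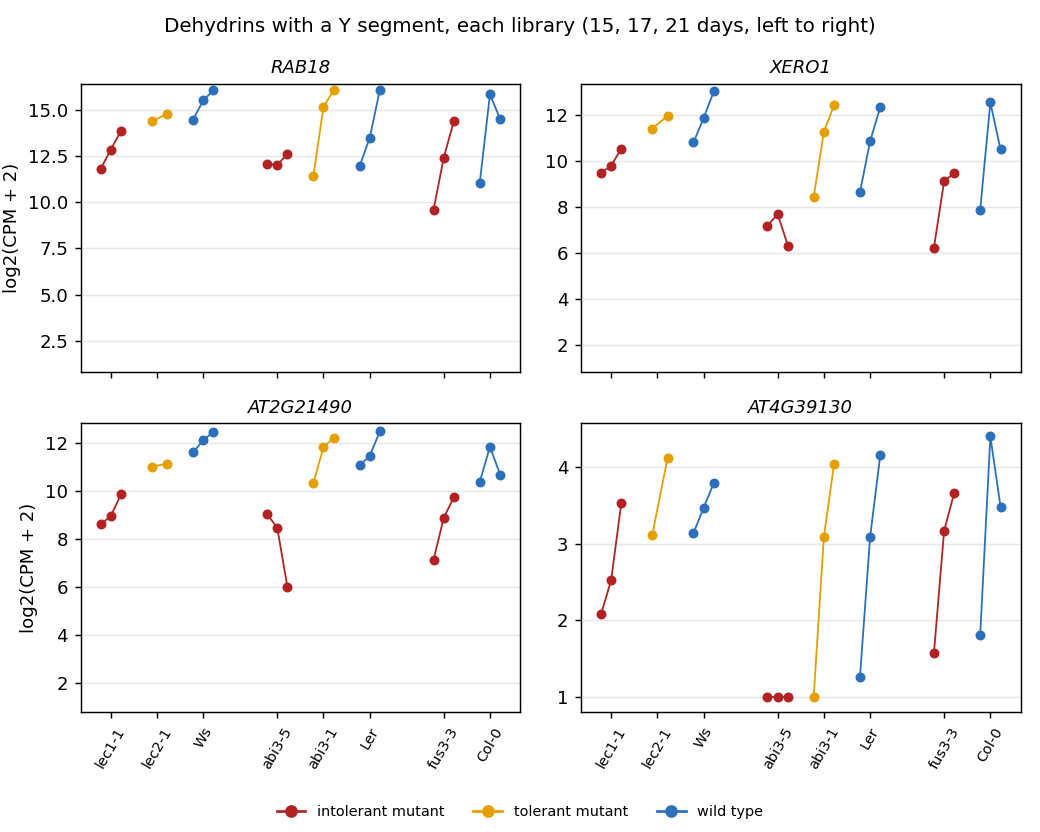
Level of the 4 dehydrins with a Y segment in every library, as log2(CPM + 2), at 15, 17 and 21 days from left to right within a genotype. Points of 1 genotype are joined, and lec2-1 has 2 points because its library of 15 and 17 days is the same. RAB18 and AT2G21490 lie lower in lec1-1 than in Ws at all days, and AT4G39130 is at 0 counts in all abi3-5 libraries.

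In abi3-5 more than one gene of each kind was called. XERO1, AT2G21490 and AT4G39130 were called lower, COR47 and AT1G54410 higher, and the other 5 members were not called. The background was 7.99% of loci called, 4.24% higher and 3.75% lower. The median log2 fold change was -3.21 over members with a Y segment and 1.95 over those without, against 0.05 over all loci. As in lec1-1, the median without a Y segment is partly set by the filter. XERO1 had 141, 204 and 77.7 CPM in abi3-5 at 15, 17 and 21 days, against 393, 1841 and 5167 CPM in Ler. It was lowest at 21 days in abi3-5 and highest at 21 days in Ler, and its level fell by 3.24 on the log2 scale (SE 0.89, edgeR adjusted p = 0.0306). AT2G21490 had 531, 357 and 62.5 CPM in abi3-5, against 2169, 2857 and 5837 CPM in Ler. AT2G21490 was also lowest at 21 days in abi3-5 and highest then in Ler, and fell by 3.17 on the log2 scale (SE 0.76, edgeR adjusted p = 0.0142). AT4G39130 had 0 counts in the 3 abi3-5 libraries, against 1, 8 and 32 counts in Ler. With a floor of 3 counts over the abi3-5 libraries its level was at least 29.9-fold lower (edgeR adjusted p = 0.00253). RAB18 had 4256, 4116 and 6273 CPM in abi3-5, against 3939.7, 11425 and 69342 CPM in Ler. It was about level with Ler at 15 days and far below it at 21 days, and the change over all days did not pass (log2 fold change -1.45, SE 0.97, edgeR adjusted p = 0.386).

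COR47 had 27.7, 22.4 and 59.6 CPM in abi3-5, against 2.75, 5.70 and 0.496 CPM in Ler. No abi3-5 library overlapped with Ler, and COR47 rose by 3.60 on the log2 scale (SE 0.99, edgeR adjusted p = 0.0312). AT1G54410 had 56.3, 30.6 and 44.7 CPM in abi3-5, against 6.28, 2.44 and 0.992 CPM in Ler, and rose by 3.70 on the log2 scale (SE 0.75, edgeR adjusted p = 0.00483). ERD10, the neighbour of COR47, had 13.3, 6.62 and 2.73 CPM in abi3-5, against 3.14, 3.25 and 0 CPM in Ler. It was higher on each day with overlapping ranges, and did not pass (log2 fold change 1.88, SE 1.02, edgeR adjusted p = 0.275). AT4G38410 had 4.53, 2.51 and 1.26 CPM in abi3-5, against 1.18, 0.814 and 0 CPM in Ler (33 counts against 4, log2 fold change 2.02, edgeR adjusted p = 0.212). XERO2 had 252, 119.6 and 171 CPM in abi3-5, against 31.8, 81.4 and 367 CPM in Ler. It was above Ler at 15 and 17 days and below it at 21 days, and the change did not pass (log2 fold change 1.69, SE 1.03, edgeR adjusted p = 0.336). XERO2 and XERO1 lie 313 bases apart on the same strand, so in abi3-5 neighbouring dehydrin genes had fitted changes of opposite sign. ERD14 had 20.9, 13.9 and 15.7 CPM in abi3-5, against 38.5, 39.1 and 3.47 CPM in Ler (log2 fold change -0.48, edgeR adjusted p = 0.757).

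AT1G54410 and AT4G39130 kept their calls against Ler with each library left out in turn. AT2G21490 was not called without the abi3-5 library of 17 days (edgeR adjusted p = 0.0691). XERO1 was not called without the abi3-5 library of 17 days (0.121), that of 21 days (0.151) or the Ler library of 21 days (0.0958), given as edgeR adjusted p. COR47 was not called without abi3-5 at 17 days (0.0549) or 21 days (0.117), or without Ler at 15 days (0.102) or 21 days (0.128), given likewise. On library totals the median of all loci was 1.49 and the split of calls was 5 higher and 1 lower, with ERD14 at 1.04 in place of -0.48.

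**Figure D3:**
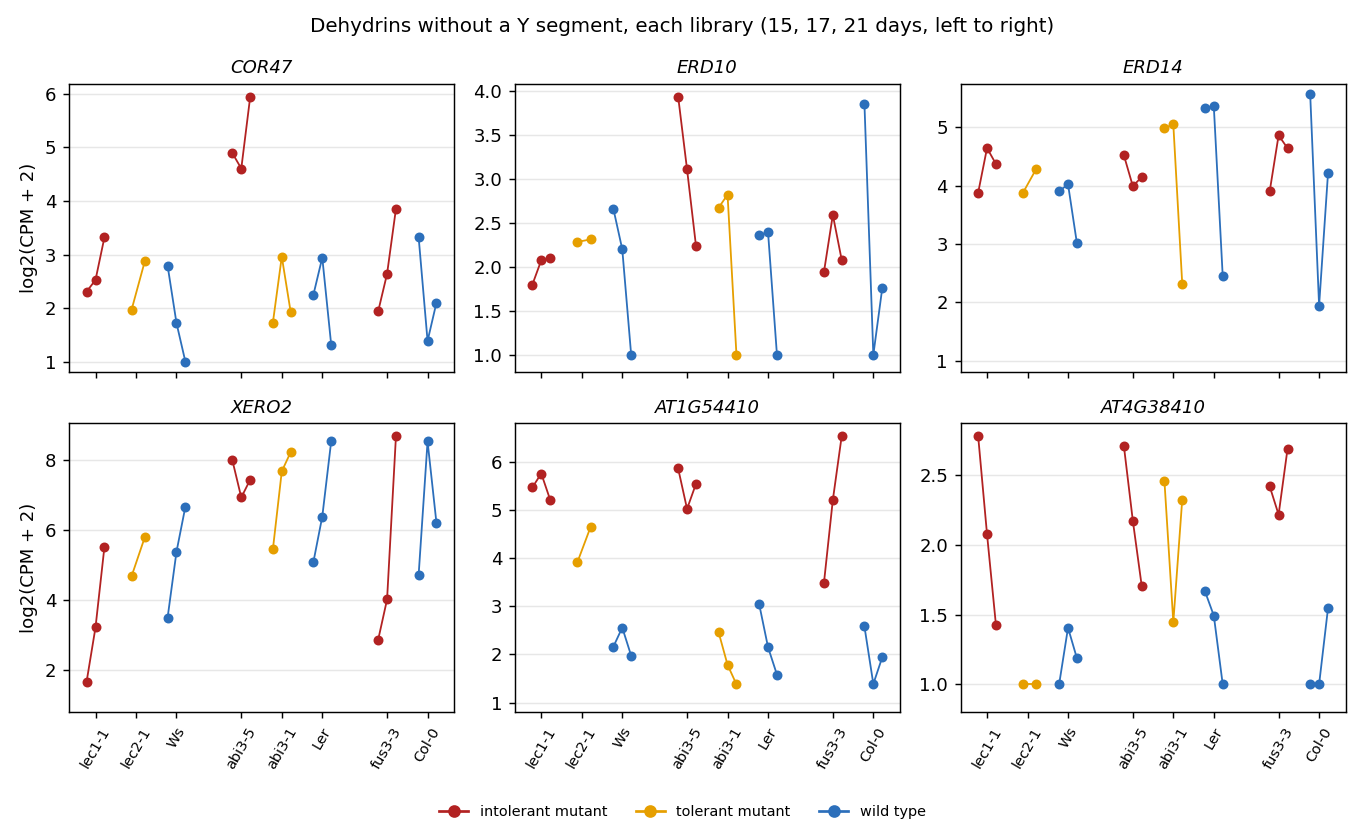
Level of the 6 dehydrins without a Y segment in every library, as log2(CPM + 2), at 15, 17 and 21 days from left to right within a genotype. AT1G54410 lies higher in lec1-1, abi3-5 and fus3-3 than in their wild types at all days, and COR47 is highest in abi3-5.

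In fus3-3 seeds XERO1 and AT2G21490 were called lower, and AT1G54410 and AT4G38410 higher, against a background of 19% of loci called (10.3% higher and 8.67% lower). The median log2 fold change was -2.13 over members with a Y segment and 0.35 over those without, against 0.02 over all loci. COR47, ERD10, AT1G54410 and AT4G38410 had 22, 28, 13 and 2 counts in Col-0, so the latter median is limited by low counts. AT2G21490 had 140.3, 474 and 871 CPM in fus3-3 at 15, 17 and 21 days, against 1355, 3713 and 1666 CPM in Col-0. The groups did not overlap, and the level fell by 2.33 on the log2 scale (SE 0.73, edgeR adjusted p = 0.0312). XERO1 had 72.8, 548 and 710.0 CPM in fus3-3, against 230.3, 5915 and 1439.9 CPM in Col-0. It was lower on each day with overlapping ranges, and fell by 2.49 on the log2 scale (SE 0.85, edgeR adjusted p = 0.0461). RAB18 had 766, 5432 and 21442 CPM in fus3-3, against 2130.3, 58094 and 23032 CPM in Col-0. It was lower on each day, with 21442 and 23032 CPM at 21 days close together, and did not pass (log2 fold change -1.93, SE 0.98, edgeR adjusted p = 0.176). AT4G39130 had 0.972, 6.99 and 10.7 CPM in fus3-3, against 1.498, 19.1 and 9.19 CPM in Col-0 (log2 fold change -0.78, edgeR adjusted p = 0.452).

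AT1G54410 had 9.18, 35.1 and 91.4 CPM in fus3-3, against 3.996, 0.617 and 1.84 CPM in Col-0. It was higher in fus3-3 on each day, most at 21 days, and rose by 4.40 on the log2 scale over Col-0 (SE 0.80, edgeR adjusted p = 0.00153). AT4G38410 had 3.35, 2.65 and 4.44 CPM in fus3-3, against 0, 0 and 0.919 CPM in Col-0 (log2 fold change 3.25, SE 1.04, edgeR adjusted p = 0.0365). These are 78 counts against 2, a ratio of 9.56 with a 95% interval of 2.56 to 80.3 for counting error alone. XERO2 had 5.29, 14.2 and 411 CPM in fus3-3, against 24.5, 366 and 71.3 CPM in Col-0 (log2 fold change -1.38, edgeR adjusted p = 0.397). COR47, ERD10 and ERD14 had log2 fold changes of 0.58, -0.39 and 0.11, none of which passed.

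With the Col-0 libraries labelled 17 and 21 days exchanged, the same 4 members passed. Without either of them, when a lone Col-0 library takes its spread from the remaining genotypes, none passed by edgeR, and 3 had an unadjusted p under 0.05. The log2 fold changes were then 3.49 for AT1G54410 (edgeR adjusted p = 0.115), -2.13 for AT2G21490 (0.236) and -0.65 for XERO1 (0.779), with 7.40 fitted for AT4G38410 against a Col-0 library at 0 counts (0.0997). XERO1 lost its call in 16 of the 23 fits that leave out 1 library, with an edgeR adjusted p of 0.405 and a log2 fold change of -0.95 without the Col-0 library labelled 17 days. AT2G21490 lost it without that library (0.0931) and without fus3-3 at 15 (0.104) or 17 days (0.118). AT4G38410 lost it without Col-0 at 15 (0.15) or 17 days (0.0816), or fus3-3 at 17 (0.083) or 21 days (0.104). AT1G54410 was called in all 23. On library totals the median of all loci was 1.14 and the split was 2 higher and 0 lower.

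**Figure D4:**
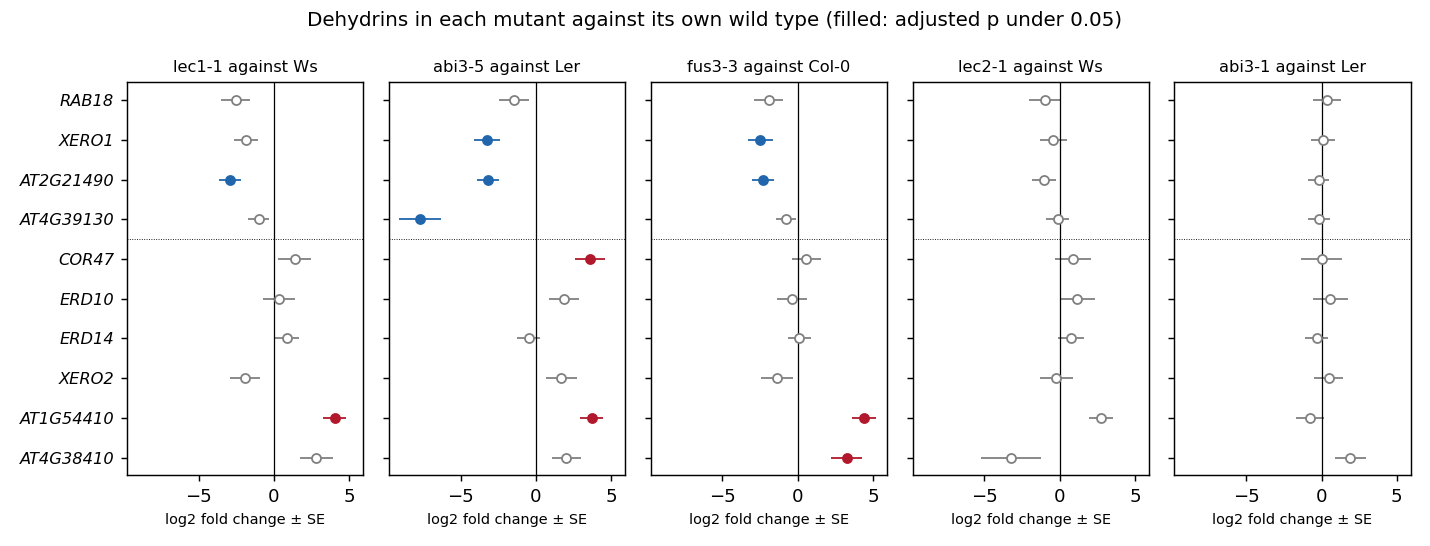
Log2 fold change of each dehydrin (point) with its SE (bar) in each mutant against its own wild type, with called members filled (red higher, blue lower) and members with a Y segment above the dotted line. AT4G39130 in abi3-5 and AT4G38410 in lec2-1 have 0 counts in the mutant, so their fitted values are no bounds. Called members with a Y segment are all lower and called members without one all higher. The latter, COR47, AT1G54410 and AT4G38410, had too few counts in Ws and Ler to be tested there. A lower level in a mutant could therefore hardly have been called for them.

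In the tolerant mutants edgeR called no dehydrin. In lec2-1 against Ws, where 1.88% of loci were called (1.85% higher and 0.0373% lower), 1 member had an unadjusted p under 0.05, AT1G54410, with 13.1 CPM in the lec2-1 library of 15 and 17 days and 23.2 CPM at 21 days, against 2.47, 3.89 and 1.93 CPM in Ws (log2 fold change 2.74, SE 0.81, edgeR adjusted p = 0.108). DESeq2 also called 0. AT1G54410 passed without the fus3-3 library of 15 or that of 21 days. The genes with a Y segment had a median of -0.71, and AT2G21490 had 2096 and 2294 CPM in lec2-1, below the 3162 to 5737 CPM of Ws (log2 fold change -1.06, SE 0.79, edgeR adjusted p = 0.88). In abi3-1 against Ler, where 0.00622% of loci were called, 0 members had an unadjusted p under 0.05 and DESeq2 called 0. The 4 genes with a Y segment had log2 fold changes between -0.20 and 0.36 there, and AT1G54410 had 3.50, 1.45 and 0.601 CPM in abi3-1 against 6.28, 2.44 and 0.992 CPM in Ler. These comparisons share Ws and Ler with those of lec1-1 and abi3-5.

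The next comparison asked which dehydrins differ between intolerant and tolerant mutants of the same ecotype. It averaged the log2 fold change within Ws (lec1-1 over lec2-1) and within Ler (abi3-5 over abi3-1). XERO1, AT2G21490 and AT4G39130 were called lower in the intolerant mutants, and AT1G54410 and AT4G38410 higher, against a background of 16.9% of loci called (9.47% higher and 7.48% lower). The log2 fold changes were -2.38 for XERO1 (SE 0.63, edgeR adjusted p = 0.0148), -2.41 for AT2G21490 (SE 0.53, 0.00499) and 2.89 for AT1G54410 (SE 0.56, 0.00198). AT4G38410 was fitted at 3.08 (SE 0.92, edgeR adjusted p = 0.0285), which rests on the 0 counts of lec2-1 and is no measured size. For abi3-5 against abi3-1 alone AT4G38410 was at 0.12 (SE 0.81, edgeR adjusted p = 0.953), from 33 and 14 counts. AT4G39130 had an edgeR adjusted p of 0.00237, and its fit rests on the 0 counts of abi3-5, where it was at least 26.2-fold lower than in abi3-1. COR47 at 2.03 (SE 0.71, edgeR adjusted p = 0.0549) and RAB18 at -1.68 (SE 0.72, 0.114) did not pass. The pairs were also fitted alone, and the difference between them was not tested. For lec1-1 against lec2-1 AT1G54410 was then at 1.31 (SE 0.73, edgeR adjusted p = 0.358). XERO1 was at -1.41 (SE 0.88, edgeR adjusted p = 0.411) and AT2G21490 at -1.84 (SE 0.76, 0.195) in that pair. The mean of 2.89 for AT1G54410 therefore rests more on abi3-5 against abi3-1, given below. For lec1-1 against lec2-1 alone, with 1.27% of loci called (0.653% higher and 0.615% lower), edgeR called 0 members, with 2 at an unadjusted p under 0.05, although AT4G38410 had 46 counts in lec1-1 and 0 in lec2-1, at least 8.35-fold higher. For abi3-5 against abi3-1 alone, with 8.29% of loci called (4.68% higher and 3.62% lower), 5 were called: XERO1, AT2G21490 and AT4G39130 lower, and COR47 at 3.60 (SE 0.99, edgeR adjusted p = 0.0301) and AT1G54410 at 4.47 (SE 0.81, 0.00194) higher. XERO1 lost its call in the mean of both pairs without lec1-1 at 17 days (0.0524) or the lec2-1 library of 15 and 17 days (0.0988). AT4G38410 lost it without abi3-1 at 17 days (0.0599), lec1-1 at 15 (0.0631) or 17 days (0.0548), the lec2-1 library of 15 and 17 days (0.131) or that of 21 days (0.122). On library totals the median of all loci was 0.83 and the split of calls was 3 higher and 2 lower.

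Whether the intolerant mutants differ among themselves was tested on the difference of their effects. By edgeR 0 dehydrins were called for abi3-5 against lec1-1 (0.336% of loci called, 0.0684% higher and 0.267% lower), 0 for fus3-3 against lec1-1 (0.00622%) and 0 for abi3-5 against fus3-3 (0.28%, 0.0933% higher and 0.187% lower), with 2, 0 and 2 at an unadjusted p under 0.05, and 1, 0 and 1 called by DESeq2. The members nearest to a call between abi3-5 and lec1-1 were AT4G39130 (edgeR adjusted p = 0.114) and XERO2 (difference 3.62, SE 1.46, 0.401). Those between abi3-5 and fus3-3 were AT4G39130 (0.108) and COR47 (difference 3.02, SE 1.37, 0.578). For AT4G39130 each of these fits rests on the 0 counts of abi3-5, so no size of difference is given. AT1G54410 had differences of -0.34 (SE 1.05), 0.35 (SE 1.10) and -0.70 (SE 1.07) between the 3 mutants, each within its SE of 0. Without the Col-0 libraries labelled 17 and 21 days edgeR again called 0 members for fus3-3 against lec1-1 and 0 for abi3-5 against fus3-3, with 0 and 3 at an unadjusted p under 0.05.

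In maturing wild-type seeds of Ws and Ler the dehydrins took different courses between 15 and 21 days. XERO1 and XERO2 were called higher at 21 days and ERD14 lower, of 6 members tested, against a background of 19.5% of 9815 loci called (6.57% higher and 12.9% lower). The median of the 6 was 2.49 against -0.01 over all loci. XERO2 had 9.27, 39.6 and 99.5 CPM in Ws and 31.8, 81.4 and 367 CPM in Ler at 15, 17 and 21 days, a log2 change of 3.35 (SE 0.46, edgeR adjusted p = 0.000569). XERO1 had 1772, 3707 and 8247 CPM in Ws and 393, 1841 and 5167 CPM in Ler, a change of 2.83 (SE 0.63, edgeR adjusted p = 0.00883). Both increased at each step in both ecotypes. ERD14 had 13.0, 14.3 and 6.07 CPM in Ws and 38.5, 39.1 and 3.47 CPM in Ler, and fell by 2.21 on the log2 scale (SE 0.61, edgeR adjusted p = 0.027). RAB18 at 2.88 (SE 0.94, edgeR adjusted p = 0.0526), AT4G39130 at 2.16 (0.0944) and AT2G21490 at 1.05 (0.225) did not pass. COR47, ERD10, AT1G54410 and AT4G38410 had too few counts in these 6 libraries to be tested, so the median above leaves them out. They entered the slope fit described below through libraries outside Ws and Ler. Their fitted changes in Ws and Ler there were -3.62 (SE 1.04), -4.65 (SE 1.30), -1.52 (SE 0.96) and -1.57 (SE 1.59). These slopes rest on counts near 0, and AT4G38410, at 0, 0.649 and 0.276 CPM in Ws, was not lower at 21 days there. ERD10 had 4.33, 2.60 and 0 CPM in Ws and 3.14, 3.25 and 0 CPM in Ler, so at 21 days no read of it was counted in either.

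With Col-0 added as labelled edgeR called 0 of the 6 members, 4 had an unadjusted p under 0.05 and DESeq2 was not run on that set. With Col-0 added and its 17 and 21 days exchanged all 6 tested members were called, 5 higher and 1 lower. The share of all loci called was not recorded for these fits, so no background stands beside the counts. ERD14 lost its call without Ler at 15 days (edgeR adjusted p = 0.184) or 21 days (0.324), and XERO1 without Ler at 15 days (0.136). On library totals the median of all loci was 0.75 and the split of calls was 5 higher and 0 lower.

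The course over days was also compared between lec1-1, abi3-5 and fus3-3 as a set and Ws and Ler, as the difference of fitted slopes expressed per 6 days. Col-0, the wild type of fus3-3, was left out of this fit, so ecotype and class were mixed in it. COR47 was the only member called, against a background of 0.986% of 15113 loci (0.675% higher and 0.311% lower). Its fitted change from 15 to 21 days was 1.75 (SE 0.45) in the intolerant mutants and -3.62 (SE 1.04) in Ws and Ler, a difference of 5.37 (SE 1.12, edgeR adjusted p = 0.033). It was higher at 21 than at 15 days in lec1-1 (2.95, 3.76 and 7.99 CPM), abi3-5 (27.7, 22.4 and 59.6 CPM) and fus3-3 (1.84, 4.24 and 12.5 CPM), while it was at 4.94, 1.30 and 0 CPM in Ws and 2.75, 5.70 and 0.496 CPM in Ler. Ws holds 10 counts of COR47 and Ler 15, so their slope rests on few reads. COR47 did not pass the filter in these wild types alone and entered the fit through the mutant libraries. ERD10 and ERD14 had differences of the same sign, 3.98 (SE 1.49, edgeR adjusted p = 0.212) and 2.43 (SE 0.80, 0.154), and did not pass. Among genes with a Y segment the differences ran from -1.86 (XERO1) to 0.27 (AT4G39130). The COR47 difference was not called without lec1-1 at 15 (0.0574) or 21 days (0.0676), Ler at 21 days (0.235), or Ws at 15 (0.175) or 21 days (0.174). Nor was it called with lec1-1 and abi3-5 as the only mutants, where the ecotypes match.

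**Figure D5:**
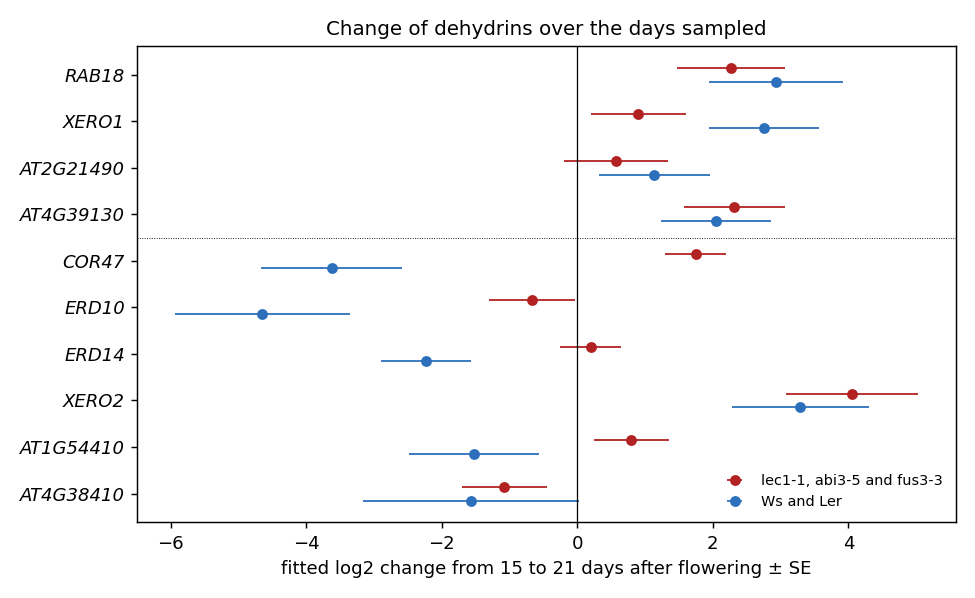
Fitted log2 change from 15 to 21 days after flowering (point) with its SE (bar) for each dehydrin, in the intolerant mutants as a set (red) and in Ws and Ler (blue). COR47 is at 1.75 in the mutants and -3.62 in the wild types, the only difference that passed.

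Across the 23 libraries the 4 genes with a Y segment varied together, with Pearson correlations of log2 level between 0.68 (AT2G21490 and AT4G39130) and 0.90 (RAB18 and XERO1). ERD10 and ERD14 correlated at 0.75, and AT1G54410 was negatively correlated with each gene with a Y segment (-0.73 with AT2G21490, -0.37 with AT4G39130). XERO2 correlated at 0.55 with RAB18 and 0.26 with XERO1, its neighbour. These points share libraries, days and scaling and are given as a description. Among 10446 loci with a mean of at least 20 counts, the pattern most like RAB18 was that of AT1G17010 (0.94), with AtMT4a, a seed metallothionein, in the third place (0.94). XERO1 was most like MLP31 (0.97), and AT4G39130 most like AT5G53895 (0.95), with GEA6, which encodes the LEA protein EM6, in the third place (0.94). AT1G54410 was most like PSRP3/1, a plastid ribosomal protein gene (0.95), followed by SAG21, a LEA gene of senescing and stressed leaves (0.93). The nearest patterns to COR47, ERD10, XERO2 and AT4G38410 correlated at 0.80, 0.85, 0.85 and 0.81.

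Other genes of the ABA and cold pathways were described from lists. Of 8 bZIP factors that bind the ABRE, 1 was called higher and 0 lower in each intolerant mutant, beside 14.5% of all loci higher in lec1-1, 4.24% in abi3-5 and 10.3% in fus3-3, so the count is near the background in lec1-1 and fus3-3. It was ABF1, with log2 fold changes of 1.68 in lec1-1 (SE 0.45, edgeR adjusted p = 0.0123), 2.27 in abi3-5 (SE 0.52, 0.0104) and 3.19 in fus3-3 (SE 0.50, 0.000626). ABI5, the main seed factor of the list, was at -1.18, -1.72 and -1.04 and did not pass (0.105, 0.0515 and 0.177). Of a list of 9 genes, the DREB factors that bind the DRE and their regulator ICE1, 5 were tested and CBF1, CBF2, CBF3 and CBF4 had too few counts. DREB2D was the 1 member called in each intolerant mutant, beside 9.15%, 3.75% and 8.67% of all loci lower in lec1-1, abi3-5 and fus3-3, and fell by 3.44 in lec1-1 (SE 0.65, edgeR adjusted p = 0.00131), 2.08 in abi3-5 (SE 0.63, 0.0464) and 3.17 in fus3-3 (SE 0.64, 0.00298). Of 12 cold and drought target genes 10 were tested, and 5 were called higher in lec1-1, 1 in abi3-5, 3 in fus3-3, 2 in lec2-1 and 0 in abi3-1, with 0 lower in these. The share of all loci called higher was 14.5% in lec1-1, 4.24% in abi3-5, 10.3% in fus3-3, 1.85% in lec2-1 and 0% in abi3-1. COR413-PM1, which encodes a cold-regulated membrane protein, rose by 3.02 in lec1-1 (SE 0.63, edgeR adjusted p = 0.00256), 3.40 in abi3-5 (SE 0.64, 0.00267) and 3.16 in fus3-3 (SE 0.64, 0.00294). RD22, a dehydration-induced gene, rose by 5.21 in lec1-1 (SE 1.16, edgeR adjusted p = 0.00384), 4.54 in fus3-3 (SE 1.07, 0.00782) and 4.68 in lec2-1 (SE 1.19, 0.0465), and was at 0.53 in abi3-5 (0.801). The medians of this list were 2.74 in lec1-1, -0.83 in abi3-5, 1.59 in fus3-3, 1.72 in lec2-1 and -0.15 in abi3-1, and COR47 was higher in abi3-5 where this median was below 0. Among the maturation regulators FUS3 fell by 3.69 in lec1-1 (SE 1.13, edgeR adjusted p = 0.0242), and ABI3 fell by 1.79 in lec1-1 (SE 0.49, 0.0138) and by 1.60 in fus3-3 (SE 0.49, 0.0286).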

How the data were processed

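Processed files were used as deposited. The authors' table holds raw read counts per locus, against TAIR10 per the submitters' processing notes, which also name edgeR. The aligner and counter are not given in the sources used here. Per the labels' protocols, triplicate collections from 24 plants were pooled, and their RNA went through linear amplification before SOLiD sequencing with barcodes. The members and lists were chosen with earlier results of these data known.

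The model of the counts used edgeR 4.0.16 under R 4.3.3: filterByExpr with a minimum count of 10, TMM factors, and a quasi-likelihood fit over all 23 libraries with terms for genotype and day, in which the doubled lec2-1 library weighed 0.5 for each of its days. P-values were Benjamini-Hochberg adjusted over all loci tested, and calls made under 0.05. Each SE was derived from the test, as the absolute log2 fold change over the square root of its quasi-likelihood F statistic. Further fits compared days in Ws and Ler, and slopes. A fold against 0 counts uses a floor of 3 counts over the group. Alternatives were RLE factors, library totals, no filter beyond a total of 3 counts, DESeq2 1.42.0 (Wald test), no day term, separate fits of the genotypes compared, each library or day left out, and Col-0 exchanged or left out. Scripts were tested on simulated data.

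All members are named. Also named are the 3 loci most correlated with a member, and from each list at most 3 members with the smallest adjusted p, with ABI5 and the 4 CBF genes added after their values were seen. Sequences and motifs come from RefSeq TAIR10.1, in which all 10 loci were matched by locus identifier. The deposited normalized table was not used. Intervals of 95% cover counting error only. With 1 to 3 counts in a group the ratio of counts is given with an exact interval.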

Additional observations from a re-analysis of the deposited data

Results flagged for a closer look

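COR47 stood out because its change over the days differed between the intolerant mutants and the wild types by a test of the difference itself. The fitted change from 15 to 21 days was 1.75 on the log2 scale in lec1-1, abi3-5 and fus3-3 and -3.62 in Ws and Ler, a difference of 5.37 (edgeR adjusted p = 0.033). COR47 was higher at 21 than at 15 days in 3 of 3 intolerant mutants and lower in both Ws and Ler, which hold 10 and 15 counts of it. It did not pass the filter in Ws and Ler alone and entered this fit through the mutant libraries, where it is higher. Its wild-type slope therefore rests on counts near 0. The fit holds fus3-3 but not its wild type Col-0, so ecotype and class were mixed. With lec1-1 and abi3-5 as the only mutants COR47 was not called. With Col-0 added as labelled the edgeR adjusted p was 0.423.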

How the results depend on the processing

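Of the members called, none changed direction under any alternative run. The numbers of the 10 dehydrins called were 2 in lec1-1, 5 in abi3-5, 4 in fus3-3 and 5 between intolerant and tolerant mutants. In lec1-1 they became 4 without the Col-0 libraries labelled 17 and 21 days, 4 with DESeq2, 4 on library totals, 5 of 8 tested with only Ws and lec1-1 in the fit (1 higher and 4 lower), and 1 without the 17-day libraries. In abi3-5 they became 2 of 8 tested with only Ler and abi3-5 in the fit (2 higher and 0 lower), 0 without the 17-day libraries and 1 without the 21-day libraries. In fus3-3 they became 0 without the 2 Col-0 libraries, 2 on library totals, 1 without a day term, 0 with only Col-0 and fus3-3 in the fit, 1 without the 15-day and 1 without the 17-day libraries. In lec2-1 the count of 0 became 1 on library totals and 1 of 7 tested with only Ws and lec2-1. Between intolerant and tolerant mutants it became 0 for lec1-1 against lec2-1 alone, 2 without the 17-day and 2 without the 21-day libraries. The differences of abi3-5 from lec1-1 and from fus3-3 had 1 call in place of 0 both after exchanging the days of Col-0 and by DESeq2. For 21 against 15 days the 3 calls became 6 with Col-0 added and exchanged, 0 with Col-0 as labelled and 5 on library totals. With no filter they became 7 of 10, 4 higher and 3 lower. For the slopes the 1 call became 3 with Col-0 added and exchanged, 0 with Col-0 as labelled, 2 with DESeq2 and 0 without fus3-3. The cause of these moves was not tested, beyond the fewer libraries of the smaller fits. Apart from lec1-1 against lec2-1 alone, the share of all loci called was not recorded for the alternative fits. Their counts therefore cannot be set against a background.

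With each library left out in turn, the calls ranged from 1 (without lec1-1 at 17 days) to 4 (without Col-0 at 17 days) in lec1-1, 2 (without abi3-5 at 17 days) to 5 in abi3-5, 1 (without Col-0 or fus3-3 at 17 days) to 4 in fus3-3, 0 to 1 in lec2-1, 0 to 0 in abi3-1, and 3 (without lec1-1 at 17 days or the doubled lec2-1 library) to 7 between intolerant and tolerant mutants. They ranged from 0 to 1 for abi3-5 against fus3-3, 1 (without Ler at 15 days) to 5 (without Ws at 21 days) for 21 against 15 days, and 0 to 1 for the slopes. The day is a term of the model, so libraries of 1 day are compared with each other, and the fit without that term is given above for fus3-3, where it changed the count by over 1.5 times. On library totals, uncalled values in the intolerant mutants that changed sign were AT4G39130 in lec1-1 (0.21) and fus3-3 (0.07), ERD10 in fus3-3 (0.82) and ERD14 in abi3-5 (1.04). Members with few counts, such as AT4G38410 with 0 to 33 counts per library, limit what small changes can be seen.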
